A study of Mus musculus with 10 samples.

Results

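The genes described here are the 10 genes of the postsynaptic side of the neuromuscular junction, *Chrna1*, *Chrnb1*, *Chrnd*, *Chrne*, *Chrng*, *Musk*, *Dok7*, *Rapsn*, *Lrp4* and *Colq*, several of which are also raised when muscle loses its nerve. They were chosen by name, and their Ensembl identifiers were all found among the 49315 gene identifiers in the count table. RNA sequencing was performed on gastrocnemius muscle from 10 male mice on the C57BL6J background, 5 of genotype AHRfl and 5 of genotype AHRmko. AHRfl mice carry floxed alleles of the aryl hydrocarbon receptor gene (*Ahr*) and lack Cre, and are described as littermates of the AHRmko mice. AHRmko mice carry the same floxed alleles together with HSA-MCM, a transgene in which the human ACTA1 promoter drives the tamoxifen-inducible recombinase MerCreMer in skeletal muscle fibres, and deletion was induced by injected tamoxifen before smoke exposure began, 4 weeks earlier by the labels and a shorter time by the study's main methods. All 10 mice were exposed to cigarette smoke for 16 weeks, on 5 days per week with 2 exposures of 1 h per day, and the muscle was taken 72 h after the last exposure by the series description. The text of the paper gives the harvest time as a range that ends at this value. No air-exposed mice were analysed here. The paper calls the smoke-exposed mice aged without a numeric age. It times the exposures of both genotypes from tamoxifen delivery, but whether AHRfl mice were injected is not stated directly in the sources used here.

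At the neuromuscular junction the motor nerve terminal releases acetylcholine onto a small patch of the muscle fibre in which acetylcholine receptors are packed at high density. Agrin from the nerve binds LRP4 on the fibre, LRP4 activates the receptor tyrosine kinase MuSK, the adaptor DOK7 sustains MuSK activity, and rapsyn anchors the receptors beneath the membrane. In the mature receptor the subunits are alpha, beta, delta and epsilon, whereas in the embryonic receptor, which returns after denervation, gamma (*Chrng*) takes the place of epsilon (*Chrne*). In innervated adult fibres most of these genes are transcribed mainly by the few nuclei that lie under the synapse, and loss of nerve activity switches several of them on along the whole fibre through the myogenic regulators MyoD and myogenin.

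Those regulators bind the E-box, CANNTG, and the promoter of the epsilon subunit holds an N-box, CCGGAA, which is bound by ETS factors such as GABP. AHR with its partner ARNT binds the xenobiotic response element, whose core is GCGTG. These 3 motifs were searched on both strands of the RefSeq promoter windows of GRCm38.p6, which run from 250 bases before to 50 bases after an annotated start, and 6 of the 10 genes (*Chrna1*, *Chrnb1*, *Chrne*, *Chrng*, *Musk* and *Dok7*) had an entry, with 2 windows for *Dok7* and 1 for each of the others. The 250 bases upstream of the start are printed for *Chrna1*, the gene with the smallest *P* between the genotypes, for *Chrne* and *Chrng*, the subunits that replace each other, and for *Musk*, the gene with the largest fitted difference. E-boxes and the N-box are in capitals.
Chrna1: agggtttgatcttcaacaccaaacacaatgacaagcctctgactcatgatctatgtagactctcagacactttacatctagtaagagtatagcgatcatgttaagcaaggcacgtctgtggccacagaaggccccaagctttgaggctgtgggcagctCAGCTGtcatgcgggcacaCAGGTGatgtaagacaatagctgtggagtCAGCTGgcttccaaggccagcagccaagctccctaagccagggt
Chrne: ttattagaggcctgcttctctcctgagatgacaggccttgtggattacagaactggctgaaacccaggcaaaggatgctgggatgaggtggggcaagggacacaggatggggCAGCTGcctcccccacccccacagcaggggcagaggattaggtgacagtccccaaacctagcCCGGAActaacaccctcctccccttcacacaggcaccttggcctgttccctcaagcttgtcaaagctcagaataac
Chrng: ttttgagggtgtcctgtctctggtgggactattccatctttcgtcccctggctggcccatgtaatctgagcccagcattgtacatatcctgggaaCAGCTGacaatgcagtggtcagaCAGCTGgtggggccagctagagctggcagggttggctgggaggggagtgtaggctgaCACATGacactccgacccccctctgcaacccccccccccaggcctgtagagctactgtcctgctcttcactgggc
Musk: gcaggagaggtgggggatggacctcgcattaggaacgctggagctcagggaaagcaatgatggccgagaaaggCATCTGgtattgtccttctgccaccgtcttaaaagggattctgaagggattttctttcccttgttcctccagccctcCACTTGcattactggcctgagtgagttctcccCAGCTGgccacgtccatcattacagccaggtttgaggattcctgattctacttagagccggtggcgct
They lie at chr2:73580339-73580588 on the minus strand, chr11:70619195-70619444 on the minus strand, chr1:87205561-87205810 on the plus strand and chr4:58285712-58285961 on the plus strand. The capitals in *Chrna1* begin 92, 73 and 44 bases before the start, those in *Chrng* 155, 132 and 75, and those in *Musk* 177, 100 and 68. In *Chrne* the E-box begins 138 and the N-box 76 bases before the start. An E-box was present in 6 of these 7 windows and in 72.3% of all 32841 promoter windows of this length, and 4 of the 7 (*Chrna1*, *Chrnb1*, *Chrng* and *Musk*) held 3 of them, against 17.6% of all windows with 3 or more. No match overlapped another. The RefSeq start of *Chrng*, at 87205811, lies inside the span that GENCODE gives to the gene, which begins at 87204657. The start of window 2 of *Dok7*, at 35057072, also lies inside its gene, which begins at 35056766. The other starts lie at or close to the GENCODE end of their gene. The N-box was found in 1 of the 7 windows and in 14.9% of all windows. The core GCGTG was found in 2 of the 7 windows (both of *Dok7*) and in 32.4% of all windows. These are matches of letters and do not show that a factor binds there.

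Total counts ranged from 30393035 to 36500548 in AHRfl mice and from 35038167 to 37954388 in AHRmko mice. The targeted gene *Ahr* had 3.13, 2.05, 1.64, 1.95 and 1.33 CPM (counts scaled to library size with TMM normalization) in AHRfl mice 11, 12, 13, 15 and 33, and 1.66, 2.17, 1.54, 1.63 and 0.927 CPM in AHRmko mice 8, 9, 19, 22 and 34. The groups overlapped, with a log2 fold change of -0.35 in edgeR's quasi-likelihood test (standard error 0.26, adjusted *P* = 0.844) that was -0.13 without AHRfl 11, so that *Ahr* counts summed over all exons do not separate the genotypes. *Esr1*, whose name is part of the designation of the MerCreMer transgene, was between 15.9 and 18.98 CPM in AHRfl mice and between 268 and 678 CPM in AHRmko mice, and its groups did not overlap. The myofibre markers (*Acta1*, *Ckm*, *Ttn*, *Myh4*, *Myh1* and *Myh2*) summed to between 99300 and 133000 CPM in the 10 mice. The dissected muscles differed in slow-fibre markers, whose sum ranged 30-fold, from 58.5 CPM (AHRfl 12) to 1760 CPM (AHRmko 8), and in Schwann cell markers, whose sum ranged from 37.7 CPM (AHRmko 34) to 119 CPM (AHRfl 11), and muscles rich and poor in each kind of marker were found in both genotypes.

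The first comparison asked whether the genes of the junction differed in smoke-exposed muscle when AHR was deleted in the fibres. Of the 10 genes, 9 had enough counts to be tested and *Chrng* did not. None of the 9 had an adjusted *P* under 0.05, where 0.0068% of the 14714 genes tested did (1 gene, *Esr1*). One of the 9, *Chrna1*, had an unadjusted *P* under 0.05, beside 6.61% of all genes, and the 10 mice separated by genotype in 0 of the 9, beside 1.4% of all genes (0.686% higher and 0.714% lower in AHRmko). DESeq2 and limma-voom also gave 0 of these genes. The fitted log2 fold change was above 0 for 7 of the 9 genes, as it was for 51.5% of all genes, and below 0 for *Chrnb1* and *Rapsn*. The median over the 9 genes was 0.14, and over all genes tested it was 0.0056. As these are whole-muscle libraries, fewer synaptic nuclei and less RNA from each of them cannot be told apart.

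**Figure D1:**
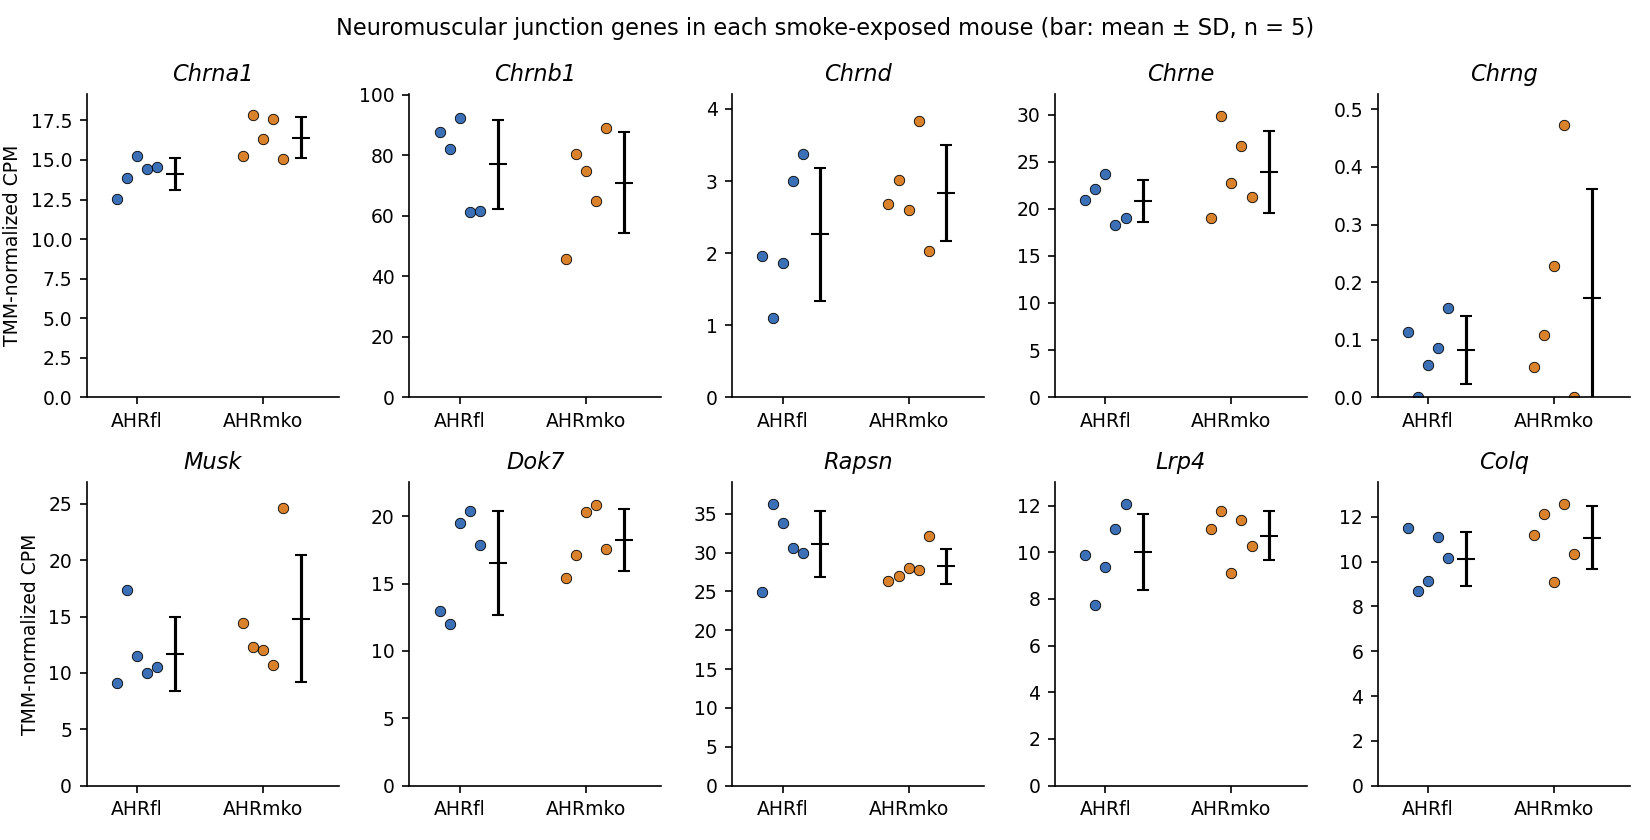
Each panel plots 1 gene in TMM-normalized CPM on a linear axis from 0, with 1 point per mouse in AHRfl (blue) and AHRmko (orange) and a bar for the mean ± SD of the 5 mice of a genotype. The points of the genotypes overlap in every panel, *Chrna1* has 3 AHRmko mice above the highest AHRfl mouse, and *Musk* has 1 AHRmko mouse at 24.6 CPM.

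Among the receptor subunits, *Chrna1*, which encodes the alpha subunit that holds the acetylcholine binding sites, lies on the minus strand at chr2:73563215-73580338. It had 12.5, 13.8, 15.3, 14.4 and 14.6 CPM in AHRfl mice 11, 12, 13, 15 and 33, and 15.2, 17.9, 16.3, 17.6 and 15.04 CPM in AHRmko mice 8, 9, 19, 22 and 34. AHRmko mice 9, 19 and 22 lay above every AHRfl mouse, and AHRmko 8 and 34 lay within the AHRfl range. The mean was 14.1 ± 1.03 CPM (SD, n = 5) in AHRfl and 16.4 ± 1.29 CPM (SD, n = 5) in AHRmko, a 1.16-fold difference with a 95% interval from 1.03 to 1.31. In edgeR's quasi-likelihood test the log2 fold change was 0.22 (standard error 0.078, *P* = 0.0159) and the adjusted *P* was 0.665, and the two-sided exact permutation test of this gene alone gave *P* = 0.0238. By unadjusted *P* the gene ranked 350 among the 14714 genes. The difference therefore did not hold after correction over all genes. Leaving out single mice moved this value no further than 0.18 to 0.25.

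*Chrnb1*, the beta subunit through which rapsyn links to the receptor, lies on the minus strand at chr11:69784036-69795943. It had 87.8, 82.1, 92.4, 61.3 and 61.5 CPM in AHRfl mice 11, 12, 13, 15 and 33, and 45.7, 80.5, 74.9, 64.7 and 88.9 CPM in AHRmko mice 8, 9, 19, 22 and 34. Both genotypes held high and low mice, and AHRmko 8 was the lowest of all 10. The log2 fold change was -0.12 (95% interval from -0.52 to 0.28, adjusted *P* = 0.939), and it was 0.0042 without AHRmko 8.

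*Chrne*, the epsilon subunit of the adult receptor, lies on the minus strand at chr11:70614883-70619216. It had 20.95, 22.1, 23.7, 18.3 and 19.01 CPM in AHRfl mice 11, 12, 13, 15 and 33, and 19.1, 29.8, 22.8, 26.7 and 21.3 CPM in AHRmko mice 8, 9, 19, 22 and 34. AHRmko 9 and 22 lay above all AHRfl mice, and the other 3 AHRmko mice lay within the AHRfl range. Between the genotypes the log2 fold change was 0.20 (95% interval from -0.051 to 0.45, adjusted *P* = 0.811), and it was 0.11 without AHRmko 9. AHRmko 9 and 22 were also the highest mice for *Chrna1*.

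*Chrnd*, the delta subunit, and *Chrng*, the gamma subunit of the embryonic receptor, are neighbours on the plus strand of chromosome 1, at chr1:87190607-87200070 and chr1:87204657-87212694. *Chrnd* had 1.96, 1.10, 1.86, 3.00 and 3.37 CPM in AHRfl mice 11, 12, 13, 15 and 33, and 2.68, 3.01, 2.60, 3.84 and 2.03 CPM in AHRmko mice 8, 9, 19, 22 and 34. It varied 3.5-fold over the 10 mice, the widest range of the 9 genes tested. The genotypes overlapped, with a log2 fold change of 0.33 (95% interval from -0.25 to 0.91, adjusted *P* = 0.863) that was 0.15 without AHRfl 12 and 0.52 without AHRfl 33. *Chrng* had only 4, 0, 2, 3 and 5 counts in AHRfl mice 11, 12, 13, 15 and 33, and 2, 4, 8, 18 and 0 counts in AHRmko mice 8, 9, 19, 22 and 34. The counts of 0 in AHRfl 12 and AHRmko 34 allow up to 3 counts, which is 0.0865 and 0.0897 CPM in these mice. The sums of 32 counts in AHRmko and 14 in AHRfl gave a rate ratio of 2.17, with a 95% interval from 1.13 to 4.41 that covers counting error only. AHRmko 22 held 56.2% of the AHRmko counts, and the ratio without that mouse was 1.2. The two-sided exact permutation test over mice gave *P* = 0.405, and no difference in *Chrng* was detectable at this depth.

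Of the signalling genes, *Musk*, the receptor tyrosine kinase, lies on the plus strand at chr4:58285960-58374303. It had 9.13, 17.4, 11.5, 9.98 and 10.54 CPM in AHRfl mice 11, 12, 13, 15 and 33, and 14.5, 12.3, 12.1, 10.7 and 24.6 CPM in AHRmko mice 8, 9, 19, 22 and 34. AHRmko 34 stood above the other mice, AHRfl 12 came next, and the groups overlapped. The fitted log2 fold change was 0.34 (95% interval from -0.21 to 0.89, adjusted *P* = 0.845). It fell to 0.080 without AHRmko 34 and was 0.53 without AHRfl 12, so the fitted size rests largely on these mice. AHRmko 34 and AHRfl 12 were also the highest mice for *Myog* (myogenin), at 9.60 and 5.83 CPM, and AHRmko 34 had the highest *Myod1* (20.1 CPM) and the lowest sum of Schwann cell markers. *Gadd45a* was also highest of its genotype in AHRmko 34 and AHRfl 12 (80.4 and 54.4 CPM). Some other denervation-responsive genes were low in these mice. *Chrng* had 0 counts in both, and *Chrnd* was lowest of its genotype in both (2.03 and 1.10 CPM). *Chrna1* was lowest of the AHRmko mice in AHRmko 34. The mean log2 CPM of the Schwann cell markers was 1.07 in AHRmko 34 but 2.34 in AHRfl 12. The part of these genes and markers in the *Musk* level was not tested.

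*Dok7*, the adaptor of MuSK, at chr5:35056766-35087839 on the plus strand, had 12.9, 11.97, 19.5, 20.4 and 17.8 CPM in AHRfl mice 11, 12, 13, 15 and 33, and 15.4, 17.2, 20.3, 20.8 and 17.6 CPM in AHRmko mice 8, 9, 19, 22 and 34. AHRfl 11 and 12 were the lowest of all mice, and the remaining mice of both genotypes covered one range. *Dok7* had a log2 fold change of 0.14 (95% interval from -0.18 to 0.47, adjusted *P* = 0.901) and was 0.046 without AHRfl 12 and 0.23 without AHRfl 15. *Lrp4*, the agrin receptor, at chr2:91457511-91513779 on the plus strand, had between 7.76 and 12.1 CPM in AHRfl mice and between 9.13 and 11.8 CPM in AHRmko mice. AHRfl 12 was again the lowest mouse. The log2 fold change of *Lrp4* was 0.098 (95% interval from -0.15 to 0.35, adjusted *P* = 0.917), with values of 0.018 without AHRfl 12 and 0.17 without AHRfl 33.

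*Rapsn*, which encodes rapsyn, lies on the plus strand at chr2:91035620-91045729. It had 25.0, 36.3, 33.8, 30.6 and 29.9 CPM in AHRfl mice 11, 12, 13, 15 and 33, and 26.3, 27.1, 28.0, 27.7 and 32.1 CPM in AHRmko mice 8, 9, 19, 22 and 34. All AHRmko mice lay within the AHRfl range. Its log2 fold change was -0.14 (95% interval from -0.34 to 0.064, adjusted *P* = 0.826), and -0.078 without AHRfl 12. *Colq*, the collagen tail that fixes acetylcholinesterase in the synaptic cleft, lies on the minus strand at chr14:31523082-31591343. It had between 8.68 and 11.5 CPM in AHRfl mice and between 9.08 and 12.6 CPM in AHRmko mice, and its groups overlapped. The log2 fold change of *Colq* was 0.13 (95% interval from -0.11 to 0.37, adjusted *P* = 0.868), and between 0.079 without AHRmko 22 and 0.20 without AHRmko 19. *Colq* shares 5.23% of its exon length with *Gm49387* on the same strand and *Rapsn* shares 0.222% with the antisense gene *Gm13778*, and the other 8 genes share none.

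**Figure D2:**
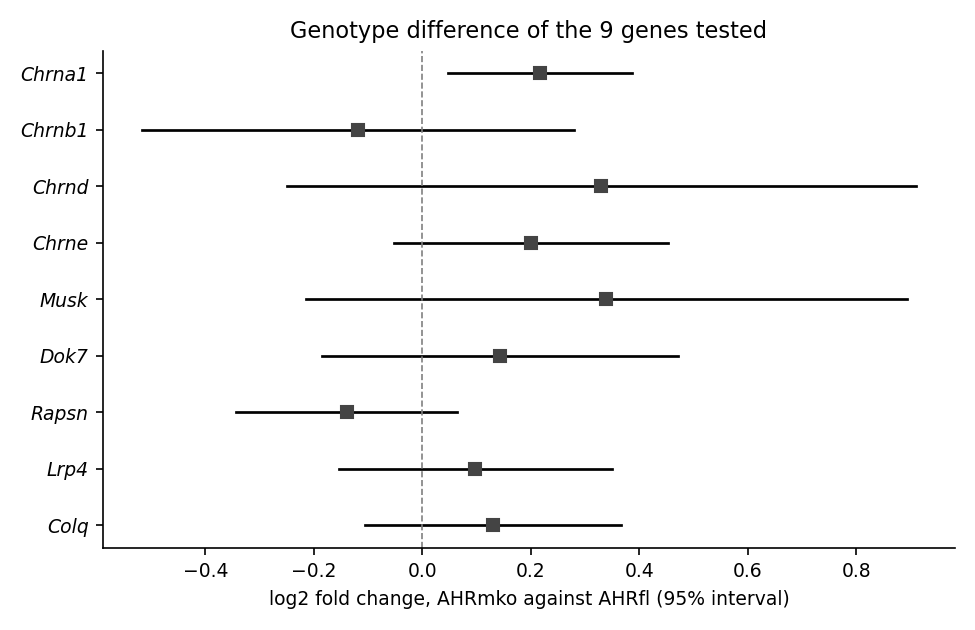
The horizontal axis is the log2 fold change of AHRmko against AHRfl in edgeR's quasi-likelihood fit, with a square for the estimate and a line for its 95% interval, for the 9 genes tested. The interval of *Chrna1* runs from 0.048 to 0.39 without adjustment for the number of genes, the other 8 intervals include 0, and those of *Chrnd* and *Musk* are the widest.

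The spread between mice of one genotype set what could be seen. The biological coefficient of variation fitted by edgeR was 0.103 for *Chrna1*, 0.123 for *Rapsn*, 0.132 for *Colq*, 0.138 for *Lrp4* and 0.142 for *Chrne*. It was 0.173 for *Dok7*, 0.205 for *Chrnb1*, 0.273 for *Musk* and 0.288 for *Chrnd*. The upper bounds of the intervals of *Chrnd* and *Musk* correspond to 1.88-fold and 1.86-fold, so that differences up to these sizes lie within the error of 5 mice per genotype. For *Rapsn* the interval ran from 0.788-fold to 1.05-fold.

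Levels were compared between genes as CPM per kilobase of annotated exon, over the 10 mice. *Chrnb1* was the highest at 29.2 ± 5.98 (SD, n = 10) and exceeded the next gene, *Rapsn* at 16.5 ± 1.98, in all 10 mice. *Rapsn* was above *Chrne*, at 13.2 ± 2.15, in 8 of 10 mice. *Dok7* (4.07 ± 0.728), *Musk* (3.51 ± 1.23) and *Chrna1* (3.48 ± 0.372) followed. These neighbours were not separated beyond their spread, since *Dok7* was above *Musk* in 7 of 10 mice and *Musk* above *Chrna1* in only 3. *Colq* was at 2.78 ± 0.352 and below *Chrna1* in 9 of 10 mice. *Lrp4* (0.987 ± 0.128) was above *Chrnd* (0.774 ± 0.248) in 9 of 10 mice, and *Chrng* was last at 0.0306 ± 0.0336, so that the adult subunit *Chrne* exceeded the embryonic subunit per exon length. Per exon length *Chrnb1* was 8.52 ± 2.17 times *Chrna1* and *Chrnd* 0.221 ± 0.0621 times *Chrna1*. The annotated exons of *Chrna1* span 4386 bases, of which 1371 are coding in its longest coding transcript. With the length of that transcript as divisor the order was the same except that *Colq* (3.73 ± 0.472) then stood before *Chrna1* (3.48 ± 0.372).

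**Figure D3:**
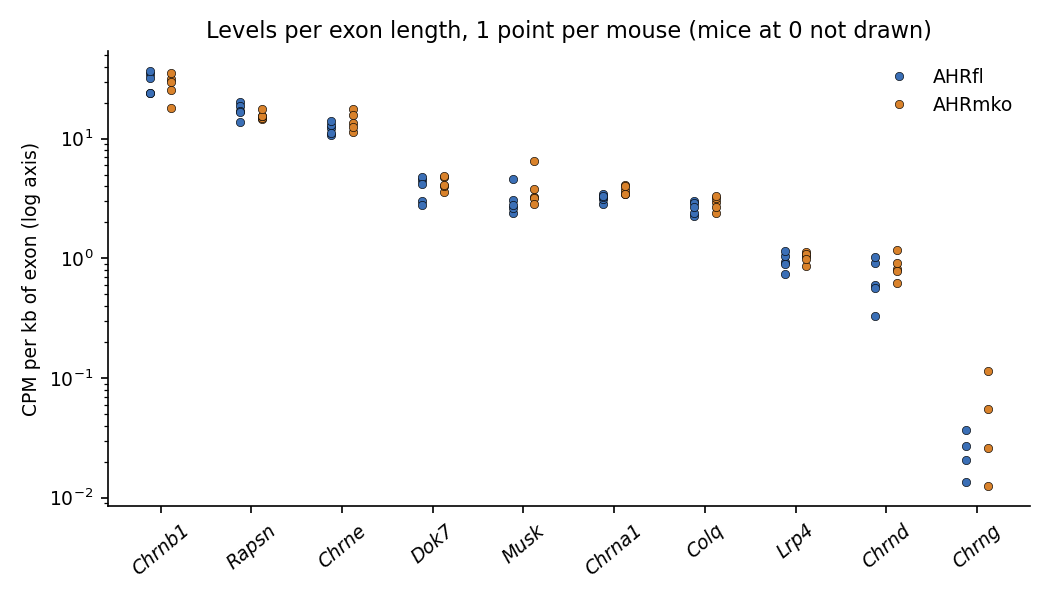
The vertical axis is CPM per kilobase of exon on a log scale, with 1 point per mouse in AHRfl (blue) and AHRmko (orange), and the genes are ordered by their mean over 10 mice. The means run from 29.2 for *Chrnb1* to 0.0306 for *Chrng*, whose 2 mice at 0 are not drawn, and the points of the genotypes overlap for every gene.

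The next comparison asked whether the genes varied together from mouse to mouse. Among the 36 pairs of the 9 genes, Pearson's r of log2 CPM was positive in 20, with a median of 0.0752, so these genes did not move as a block. One pair passed correction over the 36, the delta subunit *Chrnd* with *Lrp4*, with r = 0.889 (permutation *P* = 0.00134, adjusted *P* = 0.0482) and Spearman's rho = 0.891 (permutation *P* = 0.00121, adjusted *P* = 0.0436). Without AHRfl 12 and AHRmko 22, the mice farthest from the median of *Chrnd*, r was 0.758 (exact permutation *P* = 0.0379, not past correction over the pairs). It was 0.992 within AHRfl, 0.536 within AHRmko and 0.882 after removal of the genotype means. *Chrnd* rests on 38 to 146 counts per mouse and *Lrp4* on 269 to 434. The pairs next in size, *Lrp4* with *Colq* (r = 0.771), *Rapsn* with *Colq* (-0.714), *Chrnd* with *Dok7* (0.705) and *Chrna1* with *Chrne* (0.703), did not pass, with adjusted *P* from 0.151 to 0.169. Within a genotype r rests on 5 mice and differed widely between the genotypes for several pairs. *Chrna1* with *Chrne*, the alpha and epsilon subunits, had r = 0.0813 within AHRfl and 0.946 within AHRmko. *Chrnd* with *Chrne* had -0.762 and 0.613, and *Chrne* with *Colq* had -0.658 and 0.528. Differences in r between the genotypes were not tested.

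The genes were also set against the slow-fibre score, the mean log2 CPM of *Myh7*, *Tnni1*, *Tnnt1*, *Tnnc1*, *Myl2* and *Atp2a2*, since the muscles differed in it from 1.93 to 7.85. *Chrnb1* was lower in mice with a higher score, with r = -0.828 (permutation *P* = 0.00282) and rho = -0.794 (permutation *P* = 0.00858). Over the 18 relations of the 9 genes with the slow-fibre and Schwann scores, the adjusted *P* were 0.0508 and 0.154, so the relation did not pass correction. It was -0.870 within AHRfl and -0.821 within AHRmko, and -0.914 without AHRfl 12 and AHRmko 8 (exact permutation *P* = 0.0061). The 4 mice with the highest scores, AHRmko 8, AHRfl 15, AHRmko 22 and AHRfl 33, had the 4 lowest *Chrnb1* values among AHRfl and AHRmko together, between 45.7 and 64.7 CPM, whereas the other 6 lay between 74.9 and 92.4 CPM. With the score as a covariate the genotype difference of *Chrnb1* was -5.9e-05 on the log2 scale.

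*Chrnd* went the other way, with r = 0.777 (permutation *P* = 0.00598, adjusted *P* = 0.0538) and rho = 0.588 (permutation *P* = 0.0804, adjusted *P* = 0.482), and r = 0.710 without the same 2 mice (exact permutation *P* = 0.0608). It was 0.959 within AHRfl and 0.334 within AHRmko, and it did not pass correction. *Lrp4* had r = 0.632 with the score (permutation *P* = 0.0458, adjusted *P* = 0.206), and the remaining 6 genes had r between -0.439 (*Chrne*) and 0.557 (*Dok7*). With the Schwann score the value farthest from 0 was that of *Dok7*, with r = -0.656 (permutation *P* = 0.04, adjusted *P* = 0.206). None of the 18 relations passed correction. Whether fibre type, the part of the muscle dissected or another property of the mice accounts for these relations was not tested.

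**Figure D4:**
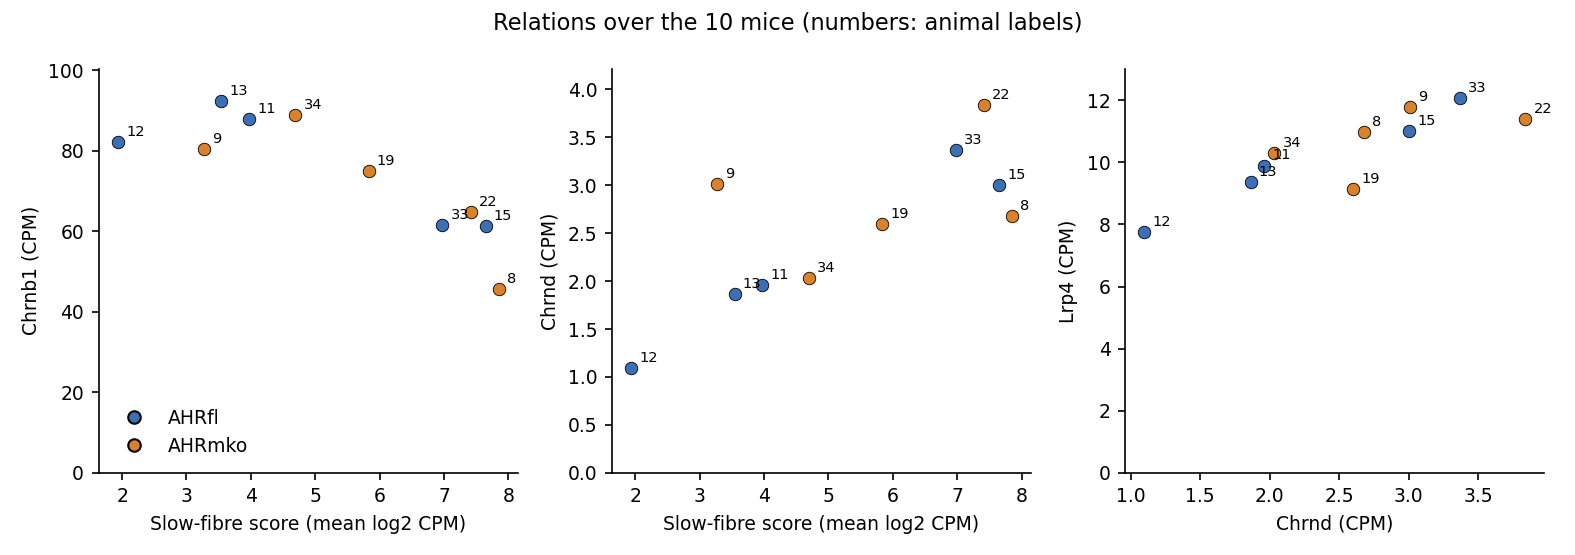
Each point is 1 mouse, labelled by its animal number, in AHRfl (blue) or AHRmko (orange), and the axes are CPM or the slow-fibre score in mean log2 CPM. *Chrnb1* lies between 45.7 and 64.7 CPM in the 4 mice with the highest score and between 74.9 and 92.4 CPM in the others, *Chrnd* is lowest in AHRfl 12, and *Chrnd* and *Lrp4* rise together with r = 0.889.

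Other genes of the pathway were examined as lists. In agrin, LRP4 and MuSK signalling 18 of 18 genes were tested, and none had an adjusted *P* under 0.05. Without regard to *P*, 13 were higher and 5 lower, beside 51.5% of all genes higher. Unadjusted *P* was under 0.05 for 2 of the 18 (both higher), beside 6.61% of all genes. *Abl1*, a tyrosine kinase in receptor clustering, was at 32.3 ± 2.63 CPM in AHRfl and 39.8 ± 4.02 CPM in AHRmko (log2 fold change 0.30, adjusted *P* = 0.606), and *Crkl*, an adaptor that binds DOK7, had a log2 fold change of 0.23 (adjusted *P* = 0.691). The 2 most abundant genes, *Hspa9* and *Dvl1*, had log2 fold changes of 0.0078 and 0.057. *Dvl1* had 0.0078 without AHRmko 34 and 0.10 without AHRmko 19. The nerve and muscle ligand gene *Agrn* had 0.060 (adjusted *P* = 0.959).

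In the synaptic cleft and basal lamina list 11 of 13 genes were higher and 2 lower, beside 51.5% of all genes higher, with a median log2 fold change of 0.13 beside 0.0056 over all genes. An unadjusted *P* under 0.05 was found for 0 of the 13, beside 6.61% of all genes. AHRfl 12 was the lowest AHRfl mouse for every gene of this list except *Ache*, *Lama5* and *Prnp*. It had 8.19 CPM for *Lama4*, 92.3 CPM for *Lamb2* and 83.2 CPM for *Hspg2*. The genes are therefore not independent of each other, and the list was not counted again without this mouse. *Ache*, the acetylcholinesterase that *Colq* anchors, was at 38.4 ± 2.94 CPM in AHRfl and 45.5 ± 9.40 CPM in AHRmko (log2 fold change 0.24, adjusted *P* = 0.792). *Lama5*, a laminin chain, had 0.20 (adjusted *P* = 0.787), *Dag1* (dystroglycan) 0.074 and *Prnp* -0.068. Without AHRmko 8 these values were 0.12, 0.036 and -0.011. *Dag1* had 0.12 without AHRmko 19, and *Prnp* had -0.15 without AHRmko 34. Of 21 genes of the postsynaptic membrane and subsynaptic nuclei 18 were tested, 10 higher and 8 lower. *Scn4a*, the muscle voltage-gated sodium channel concentrated in the synaptic folds, was at 353 ± 29.7 CPM in AHRfl and 411 ± 24.0 CPM in AHRmko (log2 fold change 0.22, adjusted *P* = 0.647) and was the one gene of the 18 with an unadjusted *P* under 0.05, a share near the 6.61% of all genes. *Pdzrn3*, a ligase that acts on MuSK, had 0.095. *Etv5*, an ETS factor of synaptic nuclei, had 0.18 (adjusted *P* = 0.815).

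Of 23 denervation-responsive genes, which include 4 of the genes above, 20 were tested. None had an adjusted *P* under 0.05, and 13 were higher and 7 lower, beside 51.5% of all genes higher. The list was counted without regard to the direction in which each gene responds to denervation. Unadjusted *P* was under 0.05 for 4 of the 20, 3 higher (*Fgfbp1*, *Myod1* and *Chrna1*) and 1 lower (*Cdkn1a*), where 3.23% of all genes were higher and 3.38% lower at that threshold. *Fgfbp1*, a growth factor binding protein of muscle that maintains the junction, had 3.10, 6.17, 4.82, 4.41 and 2.78 CPM in AHRfl mice 11, 12, 13, 15 and 33, and 6.30, 5.89, 10.4, 10.2 and 6.28 CPM in AHRmko mice 8, 9, 19, 22 and 34. Only AHRfl 12 reached into the AHRmko range. With a fitted log2 fold change of 0.87 (standard error 0.24) it had an adjusted *P* of 0.606.

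*Myod1* had 7.31, 10.47, 12.6, 8.30 and 9.74 CPM in AHRfl mice 11, 12, 13, 15 and 33, and 12.03, 11.4, 12.6, 16.6 and 20.1 CPM in AHRmko mice 8, 9, 19, 22 and 34. AHRfl 13 overlapped the AHRmko mice, and the log2 fold change was 0.59 (adjusted *P* = 0.606). *Cdkn1a*, a cell cycle inhibitor, had a log2 fold change of -0.72 (adjusted *P* = 0.683), and *Myog* one of 0.63 (standard error 0.43, adjusted *P* = 0.829). For *Myog*, AHRmko 34 was at 9.60 CPM and the other AHRmko mice were between 2.39 and 5.63 CPM. The atrophy ligases *Fbxo32* and *Trim63*, the most abundant genes of the list, had -0.23 and -0.40, with adjusted *P* of 0.890 and 0.826, and without AHRfl 12 they had 0.032 and -0.18. The embryonic subunit *Chrng* and *Gdf5* were among the genes with too few counts to be tested.

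**Figure D5:**
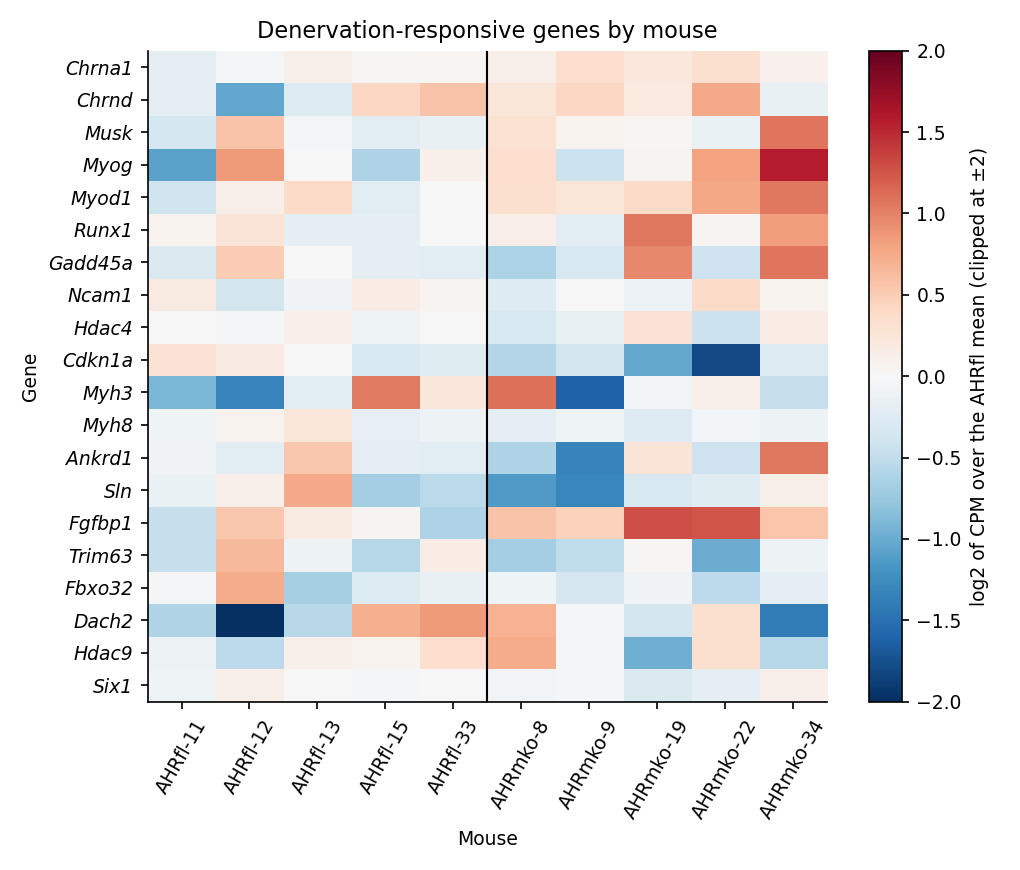
Rows are the 20 denervation-responsive genes tested, columns are the 10 mice with AHRfl to the left of the line, and the colour is the log2 of CPM over the AHRfl mean, clipped at -2 and 2. *Fgfbp1* and *Myod1* are above the AHRfl mean in all 5 AHRmko mice, *Musk*, *Myog* and *Gadd45a* are highest in AHRmko 34, and no column is raised across all rows.

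Among 9 genes of glycosylation and receptor assembly that cause congenital myasthenia or chaperone receptors, 8 were tested, with 4 higher and 4 lower and 0 with an unadjusted *P* under 0.05, beside 6.61% of all genes. *Ric3*, a receptor chaperone, had a log2 fold change of -0.29 and *Alg14* one of 0.23, with adjusted *P* of 0.774 and 0.776. *Tor1aip1* and *Rer1*, the most abundant, had -0.00024 and -0.064. Of 12 motor nerve terminal genes only 3 (*Syt2*, *Vamp1* and *Isl1*) had enough counts, 0 with an unadjusted *P* under 0.05 (6.61% of all genes), and their log2 fold changes were 0.80, 0.016 and -0.17. *Slc5a7* and *Mnx1*, a choline transporter and a motor neuron factor, had 0 counts in all 10 mice, and *Chat*, choline acetyltransferase, was above 0 in AHRfl 12 only (0.0865 CPM).

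Finally, genes were ranked by how closely they followed the mean of the 9 genes, each standardized and with the genotype means removed, among 12123 genes over the 10 mice. *Tfcp2l1* (r = 0.950), *Fig4* (0.945), *Abcb8* (0.930), *Agk* (0.923) and *Epha7* (0.902) ranked first. They were picked as the highest of many, and their r describes these 10 mice only. *Tfcp2l1* ranged from 12.4 CPM (AHRfl 11) to 17.8 CPM in AHRfl and from 13.03 CPM (AHRmko 8) to 20.9 CPM in AHRmko. The mean of the 9 genes was also lowest within its genotype in AHRfl 11 and AHRmko 8. This match is largely given by the choice, since *Tfcp2l1* was picked for following that mean. The genotype log2 fold changes of these top-ranked genes lay between -0.17 (*Epha7*) and 0.18 (*Agk*), with adjusted *P* of at least 0.849. *Epha7* had -0.067 without AHRmko 19 and -0.26 without AHRmko 9, and *Agk* had 0.11 without AHRfl 12.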

How the data were processed

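RNA was extracted from gastrocnemius, and poly(A)-selected libraries were sequenced. Trimming used Trimmomatic 0.36 and alignment to GRCm38 used STAR 2.5.2b. The authors counted reads per gene with featureCounts and deposited raw counts, 1 column per mouse, neither normalized nor pooled. Whether the libraries were stranded and which annotation release was used are not given in the sources used here, so reads of overlapping genes may be shared. Groups were taken from the labels. Names, positions and exon lengths came from GENCODE M21 of GRCm38 (49056 of 49315 identifiers).

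The analysis was run in R 4.3.3. For edgeR 4.0.16, the settings were filterByExpr (minimum count 10, minimum total 15), TMM and the quasi-likelihood test with robust estimation, with Benjamini-Hochberg adjustment over 14714 genes. The scripts were tested on simulated data. Single genes were also compared by a two-sided exact permutation test (smallest possible *P* 0.00794). Log2 CPM used a prior count of 2. Correlations used Pearson's r and Spearman's rho with 100000 permutations. Intervals and floors of counts cover counting error only. Alternatives were DESeq2 1.42.0, limma-voom (limma 3.58.1), other scalings and filters, no robust estimation, a slow-fibre covariate, and leaving out each mouse. The Schwann score as a covariate and leaving out AHRmko 19 and 34 together were added after the data were seen.

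Genes were named by rule: all 10 junction genes, from each list the 2 with the smallest *P* and the 2 with the highest mean CPM, and the 5 most like the junction genes. *Agrn*, *Etv5*, *Myog*, *Cdkn1a*, *Gadd45a* and the genes with too few counts were added after their values were seen. Some genes of the lists are counted but not reported here by name. The genes and lists were chosen with earlier results of these data known. Promoter sequences and coordinates are from RefSeq on GRCm38.p6.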

Additional observations from a re-analysis of the deposited data

Results flagged for a closer look

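*Musk* in AHRmko 34, at 24.6 CPM, stood apart from the other AHRmko mice, of which the next was at 14.5 CPM. The gap was 0.731 of the whole AHRmko range, above the critical value of 0.71. *Musk* in AHRfl 12, at 17.4 CPM with the next AHRfl mouse at 11.5 CPM, was at 0.711. Neither passed the critical value on the log2 scale. *Esr1* in AHRmko 9 was at 678 CPM with the next mouse at 330 CPM, a gap of 0.847 of the range in CPM and 0.773 on the log2 scale. On each scale 76 sets of 5 mice were examined, in which chance at about 1 in 20 would give 3.8 such gaps, so the count of gaps found is no more than chance gives. The other 8 junction genes tested had no mouse set apart in this way.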

How the results depend on the processing

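No junction gene had an adjusted *P* under 0.05 under any alternative or with any mouse left out. The lowest adjusted *P* of *Chrna1* over the alternatives was 0.38, with AHRmko 19 and 34 left out. Over all genes the count past the threshold was 1, but it was 21 with DESeq2, 5 without a filter, 2 with the slow-fibre score, 3 without AHRmko 19 and 34, and 1 to 6 in the fits without a single mouse (6 without AHRmko 34). No pair of junction genes passed once the 2 farthest mice were left out (0 against 1). Over the fits that each leave out a single mouse, *Chrnb1* ranged from -0.21 to 0.0042 in log2 fold change, *Fbxo32* from -0.36 to 0.032, *Isl1* from -0.55 to 0.73, *Vamp1* from -0.034 to 0.074, *Hspa9* from -0.019 to 0.042, *Abcb8* from -0.0054 to 0.046 and *Tor1aip1* from -0.038 to 0.048. The sign also changed with library size alone for *Hspa9* (-0.0098) and *Abcb8* (-0.0033), with limma-voom for *Isl1* (0.073), and with the slow-fibre score for *Hspa9* (-0.0088) and *Isl1* (0.23). For *Tor1aip1* it was 0.00058 with DESeq2, 0.00055 with limma-voom, 0.00017 with at least 10 counts in every mouse, 0.0023 without a filter, 0.053 with the slow-fibre score, 0.027 with the Schwann score and 0.0022 without AHRmko 19 and 34. Without AHRmko 19 and 34, values that kept their sign but moved by over 1.5 times included those of *Chrnb1* (-0.27), *Lrp4* (0.185), *Colq* (0.24), *Musk* (0.094) and *Trim63* (-0.71). The same held for *Lrp4* (0.058) and *Dok7* (0.092) with the slow-fibre score, and *Dok7* (0.060) with the Schwann score. The cause was not tested. No paired analysis was possible because the labels give no litters and AHRfl and AHRmko mice share no animal number. *Chrng*, with at most 18 counts in a mouse, is limited by depth.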
